A study of Rattus norvegicus with 4 samples.

Results

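Transforming growth factor beta (TGF-beta) signalling was followed through 10 genes in ribosome footprint counts of rat myocardial cells: the ligands Tgfb1, Tgfb2 and Tgfb3, the receptors Tgfbr1, Tgfbr2 and Tgfbr3, and the signal-carrying or inhibitory SMADs Smad2, Smad3, Smad4 and Smad7. They were taken by gene symbol and not by a cut on measured values, but were chosen with earlier results of these data known. The members are 10 of the 31038 gene rows counted. Cells labelled NRVM, described as coming from embryonic rat heart, were given either a control siRNA (siNT, 2 libraries) or an siRNA that targets eIF3m, a subunit of an initiation factor of translation (si3m, 2 libraries). Translation was stopped with cycloheximide and fragments were taken from monosome and polysome fractions. The labels state no separate cultures or litters, so each p-value measures only the spread between these libraries, which may be technical.

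TGF-beta ligands are secreted in a latent form and must be released before they can act. Active ligand is bound by the type II receptor, which recruits and phosphorylates the type I receptor, and the type I receptor then phosphorylates Smad2 and Smad3. These join Smad4 and enter the nucleus, where they change transcription. In the heart the pathway is best known for driving fibroblasts to become contractile and to lay down collagen.

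Of the 10 members, 2 rose in si3m (Tgfb2 and Tgfbr2), 3 fell (Tgfb3, Tgfbr3 and Smad4) and 5 did not pass the test. All 10 had enough counts to be tested. The test was edgeR's quasi-likelihood test across all genes, with two-sided p-values adjusted by Benjamini-Hochberg and called under 0.05. The same test called 27.8% of the 12672 genes tested, 14.0% higher and 13.9% lower. Counts of 5 called, 2 higher and 3 lower among 10 are too few to set the members apart from this background. The median log2 fold change of the members was 0.05, beside 0.02 over all genes tested. The scaling centres the fold changes, so a gene rises or falls only against the rest of the footprints. The siNT and si3m values were fully separated for 6 of the 10 members, and for 63.9% of all genes tested. What the data show is therefore which members moved, and in which direction, and not that the pathway as a whole was affected.

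**Figure D1:**
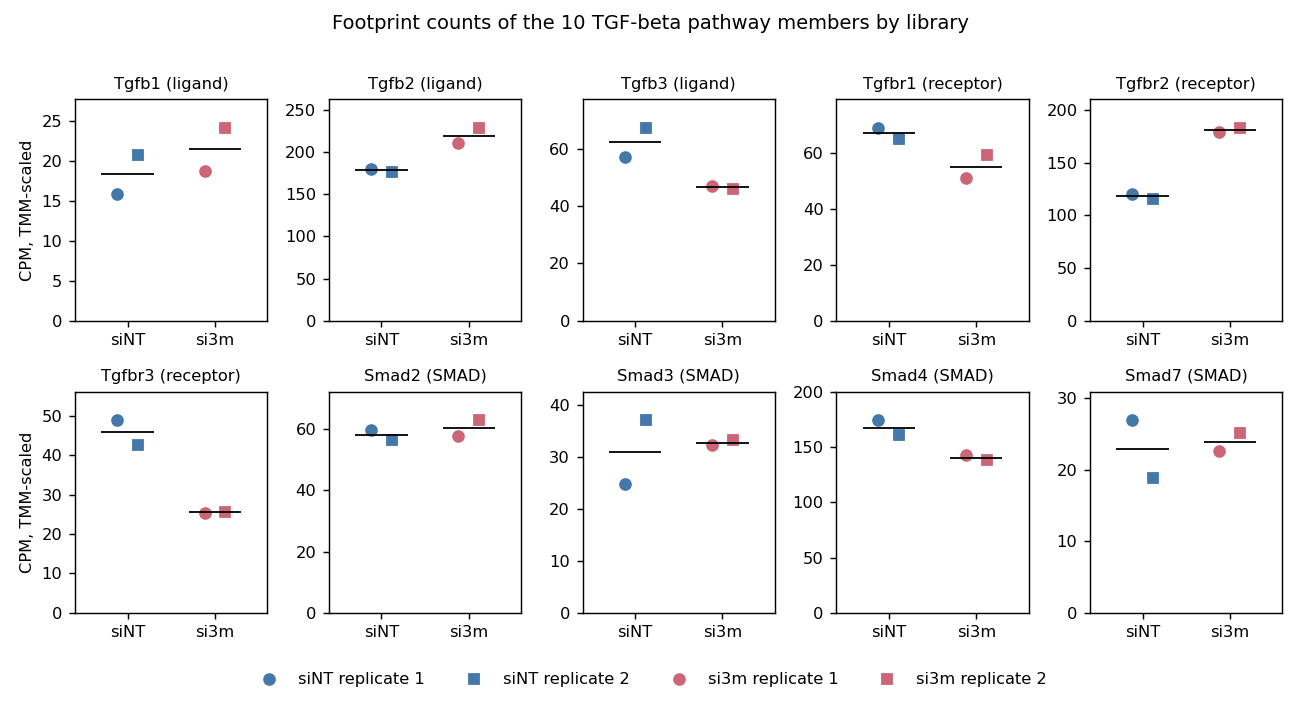
Footprint abundance of each member as CPM, the count brought to the same library size with edgeR's TMM method, in the 2 siNT and 2 si3m libraries. Points are libraries, horizontal bars are group means, and each panel has its own axis from 0. Tgfb2 and Tgfbr2 lie higher in both si3m libraries than in either siNT library, and Tgfb3, Tgfbr1, Tgfbr3 and Smad4 lie lower.

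Depth was 3924434 and 3835750 counts for siNT against 8687598 and 6726969 for si3m, and the members together took between 0.0770% and 0.0796% of each library. All 40 member values were even numbers, as were 94.9% to 97.3% of all counts above 0 in a library, so fragments appear to have been counted as 2 reads each. The targeted gene, Eif3m, fell from 491 ± 57.3 CPM to 164 ± 37.5 CPM (SD, n = 2 each). Markers of heart muscle cells, the labelled cell type, were scarce. Of 20 cardiomyocyte markers, 9 had at most 6 counts in every library, Tnni3, Myl7 and Nppa were at 0 in all of them, and the list summed to 976 to 1019 CPM of the library total in siNT and 613 CPM in both si3m libraries. Most of that sum and of its drop was Atp2a2, a calcium pump that other cells also make: the other 19 markers summed to 160 and 162 CPM in siNT and 144 and 151 CPM in si3m. Of the 7 that could be tested, Atp2a2, Ttn and Pln fell, the troponin gene Tnnt2 rose 2.38-fold (adjusted p = 0.00417), and 3 did not pass, among them Tnnc1 at 1.20-fold (adjusted p = 0.153). The 18 fibroblast markers summed to 13456 to 13488 CPM in siNT and 17633 to 17930 CPM in si3m, with Tcf21 and Fap at 0 in every library. Without Col1a1 the other 17 summed to 9545 and 9611 CPM in siNT and 11267 and 11203 CPM in si3m. Of the 18, 4 had too few counts to be tested, among them Lum and Pdgfra, and Dcn had 0 in both siNT libraries. The 10 smooth muscle and pericyte markers summed to 3775 to 3782 CPM in siNT and 3986 to 3996 CPM in si3m, but without Acta2 to 1356 and 1381 against 1078 and 1107 CPM. The 10 endothelial markers, with Cdh5 and Emcn at 0, summed to 13.3 to 15.1 CPM in siNT and 23.3 to 31.2 CPM in si3m, and the 10 leukocyte markers, with Aif1 and Tyrobp at 0, to 32.1 to 36.5 and 15.4 to 16.1 CPM. The part of such shifts in the values of the members was not tested, and in these bulk samples fewer cells of a type and fewer footprints per cell cannot be told apart.

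Because the type II and type III receptors moved furthest, in opposite directions, the sequence before their transcript starts is shown, together with that of Tgfb2, the ligand that rose. The sequences are from RefSeq on the build GRCr8, a later build than the rn6 of the counts, and capitals mark a GC box (GGGCGG), the CCAAT box or an E-box (CACGTG) on either strand. For Tgfbr3 all 250 bases before the start are given (chr14:2634044-2634293, plus strand). For the other genes, whose windows lie inside the annotated span of the gene, 30 bases around a motif are given (Tgfbr2, chr8:124761541-124761570 and chr8:124761470-124761499, minus strand; Tgfb2, chr13:100792897-100792926, minus strand).
Tgfbr3: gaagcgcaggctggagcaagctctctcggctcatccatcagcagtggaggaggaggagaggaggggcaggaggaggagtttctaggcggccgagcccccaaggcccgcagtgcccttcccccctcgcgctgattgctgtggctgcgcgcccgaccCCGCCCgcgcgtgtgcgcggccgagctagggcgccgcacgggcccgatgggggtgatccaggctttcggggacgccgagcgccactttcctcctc
Tgfbr2, CCAAT box: agtccctcaaggtCCAATccagcggccttg
Tgfbr2, GC box: aggaccggagctggaaggctcttGGGCGGc
Tgfb2, E-box: cactcatccacaCACGTGtggaaggcaggg

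The window of Tgfbr3 is rich in G and C and holds a GC box whose far end lies 95 bases before the start, and no TATA box (TATAAA). Tgfbr2 has a GC box 7 bases before its start and CCAAT boxes at 88 and 71 bases, and Tgfb2 has an E-box at 229 bases. Over the 11 windows annotated for the 10 members (Smad2 has 2), 7 held a GC box, 4 a CCAAT box, 1 an E-box (Tgfb2) and 1 a TATA box (Smad4). Among all 33469 windows of the same length, the shares were 30.5%, 34.0%, 5.59% and 12.9% in that order. The 2 windows of Smad2 overlap, and the only GC box of the first is also in the second. The SMAD box CAGAC was in none of the 11 windows and in 42.9% of all, and the palindrome GTCTAGAC, which does not contain that box, was in none and in 0.173%. These are matches of letters on both strands, not sites shown to be bound, and the footprint counts do not measure transcription.

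Among the ligands, Tgfb2 rose and Tgfb3 fell. Tgfb2, the isoform that needs a co-receptor for efficient binding to the type II receptor, had 180 and 177 CPM in siNT and 211 and 228 CPM in si3m. Both si3m libraries lay above both siNT libraries. The rise was 1.23-fold, from 179 ± 2.39 to 220 ± 12.1 CPM (SD, n = 2 each), a log2 fold change of 0.30 (SE 0.068, adjusted p = 0.00369). It passed under all 14 alternative settings tried, with log2 values from 0.22 to 0.37.

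Tgfb3, an isoform prominent in developing tissues, had 57.2 and 67.1 CPM in siNT and 47.1 and 45.8 CPM in si3m. The si3m libraries were close to each other and below both siNT libraries, which differed more. The fall was 1.34-fold, from 62.2 ± 6.95 to 46.4 ± 0.931 CPM (SD, n = 2 each), a log2 fold change of -0.42 (SE 0.14, adjusted p = 0.0342). This call was lost with DESeq2 (adjusted p = 0.0816), without siNT replicate 2 (0.203), without si3m replicate 1 (0.120) and without si3m replicate 2 (0.157), with the log2 value between -0.52 and -0.30 over all settings.

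Tgfb1, the isoform most studied in cardiac fibrosis, had the fewest counts of the members: 64 and 82 counts for siNT and 160 and 156 for si3m. In CPM these were 15.9 and 20.8 against 18.8 and 24.1, and the groups overlapped. Its log2 fold change of 0.22 did not pass (95% interval -0.29 to 0.73, adjusted p = 0.539), so a change between 0.820-fold and 1.65-fold was not distinguishable at this depth.

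The receptors showed the widest spread. Tgfbr2, the type II receptor that binds ligand and starts the kinase cascade, had 484 and 456 counts in siNT and 1526 and 1182 in si3m. In CPM these were 120 and 116 against 180 and 183, the replicates of each group nearly coinciding and the groups well apart. The rise was 1.53-fold, from 118 ± 3.27 to 181 ± 2.22 CPM (SD, n = 2 each), a log2 fold change of 0.62 (SE 0.076, adjusted p = 1.73e-05). It passed under all 14 alternatives, with log2 values from 0.54 to 0.70.

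Tgfbr3, or betaglycan, is the co-receptor that presents ligand, TGF-beta 2 in particular, to the type II receptor. It moved the opposite way, with 196 and 168 counts in siNT and 214 and 166 in si3m, although the si3m libraries were deeper. In CPM these were 48.8 and 42.7 against 25.2 and 25.7, again without overlap. The fall was 1.80-fold, from 45.7 ± 4.32 to 25.4 ± 0.337 CPM (SD, n = 2 each), a log2 fold change of -0.85 (SE 0.17, adjusted p = 0.00141). It passed under all 14 alternatives, with log2 values from -0.93 to -0.74. In the GRCr8 annotation Tgfbr3 overlaps 2 long non-coding RNA genes, Tgfb2 a small nucleolar RNA gene and Smad2 a pseudogene. None of these has a row of its own in the count files. Only gene spans were compared, and any reads they share cannot be told apart where the strand setting is not given.

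Tgfbr1, the type I receptor kinase, had 68.7 and 65.0 CPM in siNT and 50.9 and 59.1 CPM in si3m. The si3m values were thus both under the siNT values, but the log2 fold change of -0.29 did not pass (95% interval -0.57 to -0.0048, not adjusted for the number of genes; adjusted p = 0.124). With total count scaling it passed (log2 -0.37, adjusted p = 0.0478), and with none of the other 13 alternatives.

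**Figure D2:**
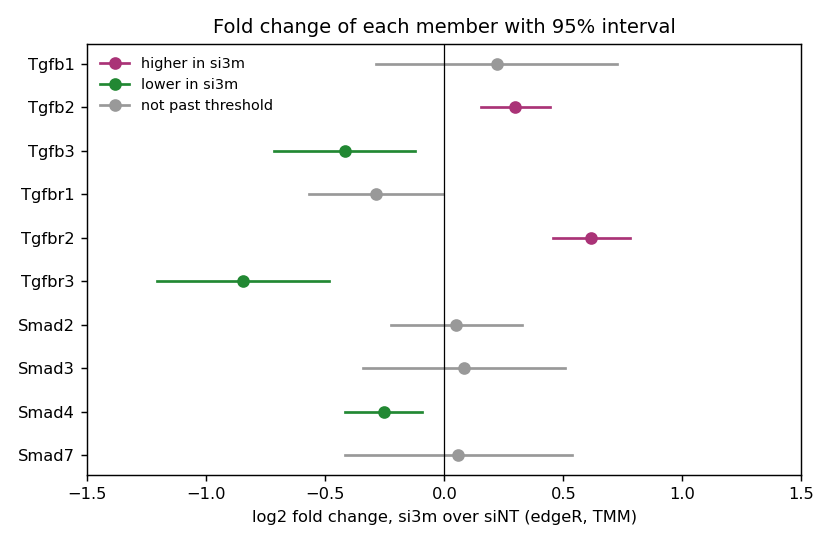
Log2 fold change of each member in si3m over siNT (points) with its 95% interval (lines), from the edgeR fit across all genes. Tgfbr2 at 0.62 and Tgfbr3 at -0.85 lie farthest from 0, and the intervals of Tgfb1, Smad2, Smad3 and Smad7 include 0.

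Among the SMADs only Smad4 passed. Smad4, the partner shared by the TGF-beta and bone morphogenetic protein (BMP) branches, had 174 and 161 CPM in siNT and 142 and 139 CPM in si3m. The si3m pair lay under the siNT pair. The fall was 1.19-fold, from 168 ± 9.31 to 141 ± 2.75 CPM (SD, n = 2 each), a log2 fold change of -0.25 (SE 0.076, adjusted p = 0.0206). The call was lost with DESeq2 (adjusted p = 0.0704), without siNT replicate 1 (0.144), without si3m replicate 1 (0.0632) and without si3m replicate 2 (0.120), with log2 values between -0.33 and -0.19.

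Smad2 and Smad3, the SMADs phosphorylated by the type I receptor, did not pass. Smad2 had 59.7 and 56.4 CPM in siNT and 57.7 and 62.8 CPM in si3m, and the groups overlapped (log2 0.05, 95% interval -0.23 to 0.33, adjusted p = 0.811). Smad3 had 24.9 and 37.1 CPM in siNT and 32.3 and 33.4 CPM in si3m. Its si3m values fell between the siNT values, which were the farthest apart of any pair among the SMADs in proportion to their mean (log2 0.08, 95% interval -0.34 to 0.51, adjusted p = 0.796). Without siNT replicate 1 the Smad3 value was -0.17 and without siNT replicate 2 it was 0.40, so its direction rested on a single control library.

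Smad7, the inhibitory SMAD that competes at the type I receptor and is itself induced by TGF-beta, had 108 and 74 counts in siNT and 192 and 162 in si3m. In CPM these were 26.9 and 18.8 against 22.6 and 25.1, with the si3m pair inside the siNT pair. The log2 fold change was 0.06 (95% interval -0.42 to 0.53, adjusted p = 0.879). It changed sign without siNT replicate 2 (-0.17), without si3m replicate 2 (-0.0052) and with total count scaling (-0.02). For Tgfb1, Smad3 and Smad7 the intervals allow changes of the size seen in Smad4 in either direction. The interval of Smad2 allows a rise of that size, but its lower end of -0.23 stops short of the Smad4 value of -0.25. Tgfb1, Smad2, Smad3 and Smad7 are therefore not shown to be unaffected.

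Ratios of the raw counts of 2 members within a library do not depend on how libraries are scaled. They do depend on transcript length, so only their change between libraries is read. Tgfbr2 had 1.75 and 1.78 counts per count of Tgfbr1 in siNT, and 3.53 and 3.09 in si3m. The same receptor had 2.47 and 2.71 counts per count of Tgfbr3 in siNT, and 7.13 and 7.12 in si3m, a 2.75-fold shift. Its share of all receptor counts was 50.6% and 51.8% in siNT and 70.3% and 68.3% in si3m, while that of Tgfbr3 was 20.5% and 19.1% against 9.85% and 9.60%.

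Tgfb2 had 3.15 and 2.64 counts per count of Tgfb3 in siNT and 4.49 and 4.99 in si3m, a 1.64-fold shift. Against Tgfb1 the ratio was 11.3 and 8.49 in siNT and 11.2 and 9.46 in si3m, and the groups overlapped. Smad2 had 0.343 and 0.350 counts per count of Smad4 in siNT and 0.405 and 0.453 in si3m. Of the 9 ratios computed, 7 did not overlap between the groups. The 9 ratios share genes with each other, and the share over all pairs of genes was not computed. Among single genes, 63.9% of all tested did not overlap. With 2 libraries against 2, an exact two-sided permutation test cannot give a p below 0.333, which was the value for each of those 7 ratios.

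**Figure D3:**
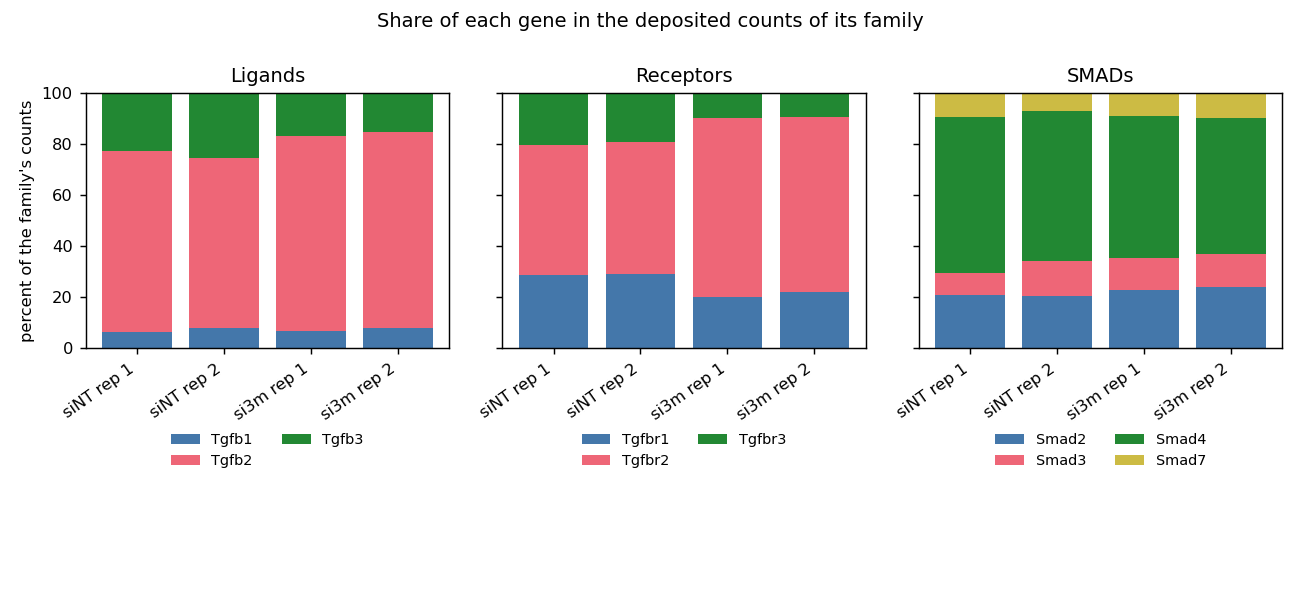
Stacked bars give the percent of the raw counts of each family (ligands, receptors, SMADs) taken by each gene in each of the 4 libraries. The Tgfbr2 share goes from 50.6% and 51.8% in siNT to 70.3% and 68.3% in si3m, and the shares within the SMADs move little.

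Summed over each family, the opposite movements partly cancelled. The 3 ligands together had 253 and 265 CPM in siNT and 277 and 298 in si3m, and the 3 receptors had 238 and 224 against 256 and 268. The 4 SMADs had 286 and 273 CPM in siNT and 255 and 260 in si3m. These sums are dominated by the genes with most counts, Tgfb2, Tgfbr2 and Smad4.

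The wider pathway was read from 5 lists of textbook membership holding 128 genes, of which 106 could be tested. Of these, 28 rose and 15 fell, where 14.0% of all genes tested rose and 13.9% fell. The same shares stand beside the counts of each list below, and no list was tested as a set. A gene that belongs to 2 lists counts in both. In the list of latent complex and activation genes, 4 of 15 tested members rose and 3 fell (median log2 0.10), and 5 more had too few counts. Integrin subunits, some of which release latent TGF-beta, differed in direction. Itgb1 fell 1.85-fold (log2 -0.89, SE 0.022, adjusted p = 1.08e-13) and Itgav, which pairs with it, fell 1.35-fold (log2 -0.43, SE 0.041), whereas Itgb5 rose 1.57-fold (log2 0.65, SE 0.13). Fbn1, the fibrillin that anchors latent complexes in the matrix, rose 1.34-fold (log2 0.42, SE 0.056), and Thbs1, an activator of latent TGF-beta, rose 1.13-fold (log2 0.17, SE 0.029). Plat, a protease that generates plasmin, rose by 0.26 on the log2 scale (adjusted p = 0.0158), but not with DESeq2 (0.0569), with total count scaling (0.102) or without si3m replicate 1 (0.254). The annotated span of Plat on GRCr8 overlaps that of the gene Ikbkb, and whether they share reads was not tested. The span of Itgb1 overlaps a protein-coding gene without a row of its own in the counts. The same holds for Ep300, Bmpr2 and Acvr1, named below, and sharing of reads was not tested for these either. The remaining fall, named although outside the rule, was that of the membrane protease Mmp14 (log2 -0.31, SE 0.093, adjusted p = 0.0205), a call lost with DESeq2 (0.0609), without siNT replicate 1 (0.194), without si3m replicate 1 (0.0866) and without si3m replicate 2 (0.0734). Ltbp1, the binding protein that is secreted with the latent ligand, had a log2 value of 0.10 and did not pass (adjusted p = 0.266).

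SMAD partners and negative regulators had 2 of 20 tested members higher and 3 lower (median log2 -0.04). Skil, a repressor of SMAD transcription, fell 1.45-fold, from 431 ± 5.88 to 297 ± 4.62 CPM (SD, n = 2 each; log2 -0.54, adjusted p = 2.29e-06). Ep300, an acetyltransferase that SMADs recruit, fell by 0.48 on the log2 scale, and Trim33, which competes with Smad4 for Smad2 and Smad3, fell by 0.27, a call lost without si3m replicate 1 (adjusted p = 0.0752). Eng, or endoglin, a co-receptor related to Tgfbr3 and also an endothelial marker, rose 2.97-fold from 26 and 22 counts in siNT to 140 and 126 in si3m (log2 1.57, SE 0.29, adjusted p = 7.00e-04). The other 9 endothelial markers summed to 6.63 and 9.39 CPM of the library total in siNT and 7.14 and 12.5 CPM in si3m, and the groups overlapped. Among them Egfl7 had 12 counts in each siNT library and 30 and 56 in si3m (log2 0.99, adjusted p = 0.188, not past the threshold), Tek had 0 in both siNT libraries and 4 and 10 in si3m, Pecam1 had at most 2 in any library, and Cdh5 and Emcn had 0. Their part in the rise of Eng was not tested. Tgif2, a SMAD co-repressor, had only 2 and 6 counts in siNT and 34 and 26 in si3m (adjusted p = 0.0422), and did not pass without siNT replicate 1 (0.189), without either si3m library (0.256 and 0.245) or with total count scaling (0.0507). Smad6, the inhibitory SMAD of the BMP branch, had between 8 and 18 counts and did not pass (adjusted p = 0.149).

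In the BMP and activin branch, 4 of 16 tested members rose and 1 fell (median log2 -0.09), and 13 had too few counts. Fstl1, a secreted follistatin-like glycoprotein, rose 2.01-fold, from 488 ± 16.3 to 978 ± 5.04 CPM (SD, n = 2 each; edgeR adjusted p = 2.85e-10). Bmp1, a protease that processes procollagen, rose 1.52-fold (log2 0.61), and Fst, which traps activin, rose by 0.28 on the log2 scale (adjusted p = 0.0205, but 0.0991 with DESeq2, 0.0931 with total count scaling, 0.0761 without siNT replicate 1, 0.0732 without si3m replicate 1 and 0.0895 without si3m replicate 2). Dcn, or decorin, a proteoglycan that binds TGF-beta, was without counts in siNT (0 in each library) and had 24 and 20 in si3m. Taking 6 counts for the siNT group as the limit that 0 allows, and the si3m counts as exact, Dcn was at least 3.69-fold higher. The median of the list stayed at -0.09 with Dcn at that bound. The counts of Dcn were too low for the stricter filter of at least 50 counts in 2 libraries. Genes of the list that rose numbered 3 with that filter, with total count scaling, with counts divided by 2 and with thinned counts, and 2 with DESeq2. Smad1, which carries the BMP signal, fell 1.59-fold (log2 -0.67, SE 0.20, adjusted p = 0.0188), a call lost without siNT replicate 1 (0.138) and without si3m replicate 1 (0.175). Smad5, of the same branch, had a log2 value of 0.17 (adjusted p = 0.100). The receptors Bmpr2 and Acvr1 had -0.12 (0.141) and -0.11 (0.682), and none of these 3 genes passed the threshold. With total count scaling Bmpr2 passed (log2 -0.20, adjusted p = 0.0172).

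Of 18 genes of non-SMAD signalling, all tested, 2 rose and 2 fell (median log2 0.05). The kinases Rock1 and Rock2, which act downstream of the GTPase RhoA on the actin cytoskeleton, fell 1.57-fold and 1.53-fold (log2 -0.65 and -0.62, SE 0.060 and 0.062). Rhoa itself rose 1.39-fold (log2 0.48, SE 0.055). Its annotated span on GRCr8 overlaps that of the gene Tcta, and whether they share reads was not tested. Mapk14, the p38 kinase, rose 1.34-fold (log2 0.42, adjusted p = 0.0181), but not with DESeq2 (0.0637), with total count scaling (0.0507), without si3m replicate 1 (0.0670) or without si3m replicate 2 (0.0978). The count of members that rose became 4 without siNT replicate 1.

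Known target genes of TGF-beta had 17 of 43 tested members higher and 8 lower (median log2 0.16), where 14.0% and 13.9% of all genes were called. These shares were not matched for counts, and in genes with many counts small changes also pass. Fn1, at 4296 CPM in siNT, was called at a 1.12-fold fall. Among the targets with the smallest p, the fibrillar collagens Col3a1, Col1a1 and Col1a2 rose 2.50-fold, 1.78-fold and 1.54-fold. Postn, a matrix protein of activated fibroblasts, rose 1.88-fold, and Itgb1, also in this list, fell as given above. These were not the largest changes of the list, as Snai2, given in the closing section, moved further. The annotated span of Col1a1 on GRCr8 overlaps that of Sgca, and whether they share reads was not tested. Ccn2 (Ctgf in the files), a widely used readout of the pathway, fell 1.26-fold, from 3699 ± 68.1 to 2934 ± 19.5 CPM (SD, n = 2 each), a log2 fold change of -0.33 (SE 0.027, adjusted p = 1.47e-07). Of the 7 targets that are also fibroblast markers, 6 rose and 1 fell, and of the other 36 tested, 11 rose and 7 fell. The fibroblast marker sum, which was higher in si3m as given above, includes those 7 genes. It is therefore not a separate measure from them, and its part in the values of the other targets was not tested.

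**Figure D4:**
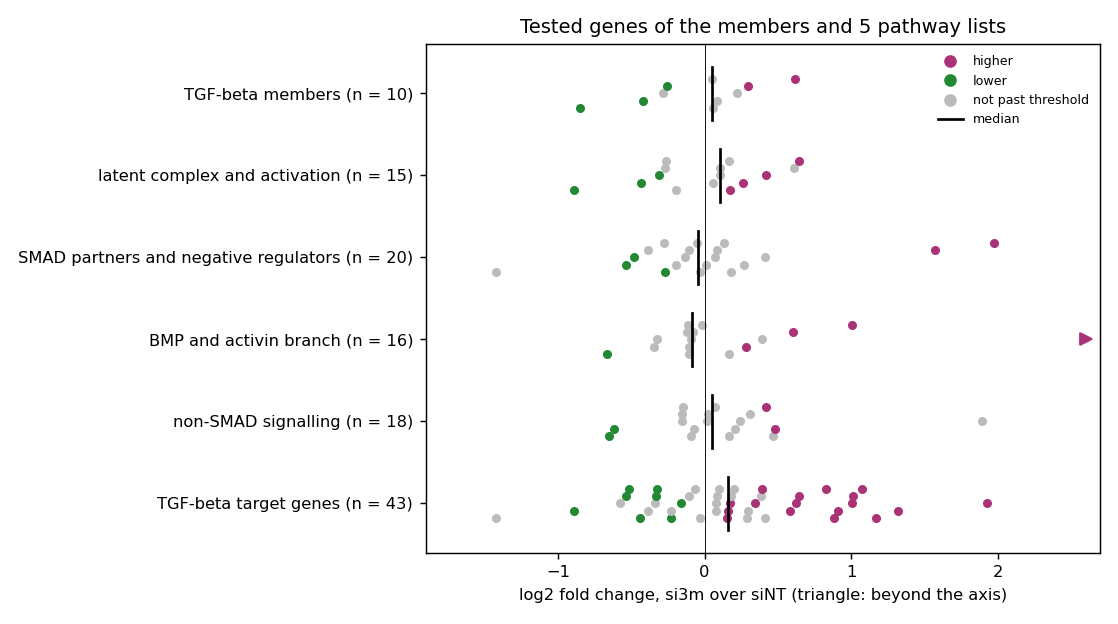
Log2 fold change in si3m over siNT of each tested gene of the members and of the 5 pathway lists; black bars are list medians. The target genes spread to both sides with 17 higher and 8 lower, and the triangle is Dcn, whose siNT counts are 0.

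Over the alternatives, Tgfb2, Tgfbr2 and Tgfbr3 kept their direction and their call in all 14 settings. Tgfb3 and Smad4 kept their direction in all 14 and their call in 10 each.

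**Figure D5:**
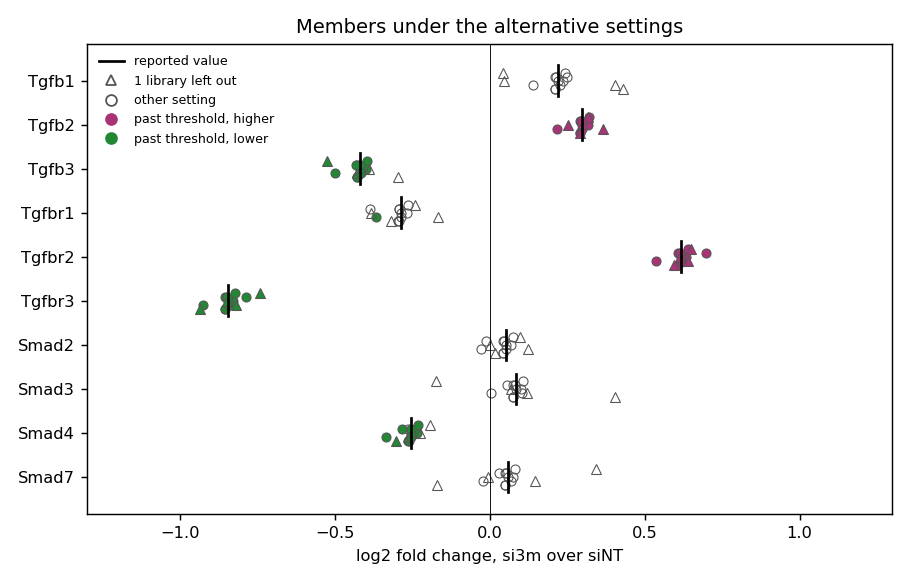
Log2 fold change of each member under 14 alternative settings, with triangles for settings that leave out a library, circles for the others, filled symbols for values past the threshold and black bars for the reported value. The filled symbols of Tgfbr2, Tgfb2 and Tgfbr3 stay on their side of 0, while Smad2, Smad3 and Smad7 cross 0.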

How the data were processed

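The authors deposited raw counts per gene for each of 4 ribosome footprint libraries, whole numbers with no normalization, 31038 rows each. Per the submitters' processing notes, the build was rn6 and the tools included featureCounts, HISAT2 2.2.1, Trimmomatic 0.40, DESeq2 and limma. What each did, which annotation was used and how strand was treated is not given in the sources used here. Depth was 3835750 to 8687598 counts per library. RNA-seq of the same cells was not analysed here, so values are footprint abundance and not translational efficiency.

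Counts were tested with edgeR 4.0.16 in R 4.3.3: filterByExpr (minimum count 10), TMM scaling, glmQLFit and glmQLFTest, siNT against si3m, no block, adjusted over the 12672 genes tested. The script was tested on simulated data. SE is the log2 fold change divided by the square root of the test's F, and intervals use its t quantile. The replicates differed by 1.40 (siNT) and 1.48 (si3m) times counting noise (median chi-square on fragments) and were kept as 2 samples.

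Members and lists were chosen with earlier results of these data known. All members are named; from each pathway list up to 6 genes with the smallest p past the threshold, and 9 genes nearest the members in role, are named. One gene that this rule names is not reported here. Marker genes, and genes in the closing section, were named after their values were seen. All 135 list entries matched a row, 2 by a synonym in the RefSeq table of GRCr8.

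Alternatives were DESeq2 1.42.0, its size factors in edgeR, total count and upper quartile scaling, no filter, at least 50 counts in 2 libraries, a replicate block, robust dispersion, counts divided by 2 and each library left out. Counts thinned to the smallest library were added after seeing the data.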

Additional observations from a re-analysis of the deposited data

How the results depend on the processing

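The 2 members that were higher stayed 2 under every alternative. The count of members that were lower, 3 in the reported fit, was 1 with the DESeq2 test and between 1 and 2 with a library left out. With total count scaling the count of lower members was 4, Tgfbr1 being added. Smad2 changed sign with total count scaling (-0.030) and with thinned counts (-0.012). Smad3, with a library left out, ranged from -0.17 to 0.40, and Smad7 from -0.17 to 0.34, with -0.023 under total count scaling. Acvr1 ranged from -0.28 to 0.078 with a library left out. For SMAD partners and negative regulators the count of genes that were higher was 1 with total count scaling, with the DESeq2 test and with the stricter filter, and between 1 and 3 with a library left out. In the BMP and activin branch the count higher was 2 with the DESeq2 test, and the count lower was 2 with total count scaling and between 0 and 1 with a library left out. Non-SMAD genes that were higher numbered 1 with total count scaling and with the DESeq2 test, and between 1 and 4 with a library left out. The counts of latent complex genes, target genes and all genes tested stayed within 1.5 times. Of 424 values of the 31 other genes that the naming rule picked, under the alternatives, 403 kept their direction and their side of the threshold. Eif3m had an adjusted p of 0.0522 with robust dispersion. Total count scaling moved the median log2 fold change of all genes from 0.02 to -0.06. With the replicate block, 2 members were higher and 3 lower. The replicate numbers do not pair the libraries by any label, and the differences between replicates 1 and 2 in siNT and si3m had a correlation of -0.02 across genes. The lowest-count member, Tgfb1, had 64 to 160 counts, and a count of 0 allows up to 3 fragments, 0.691 to 1.56 CPM, counting error only.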

Other observations

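Target genes beyond those named in the comparisons, chosen after their values were seen, moved in both directions. Snai2, a transcription factor of mesenchymal cells, rose from 5.02 ± 0.638 to 19.1 ± 2.30 CPM (log2 1.92, SE 0.29; SD, n = 2 each). Tgfbi, a matrix protein named for its induction by TGF-beta, rose by 1.08 on the log2 scale (SE 0.16), Id3, a target of the BMP branch, by 1.17 (SE 0.22) and the crosslinking enzyme Loxl2 by 1.01 (SE 0.15). The basement membrane collagen Col4a1 fell by 0.44 on the log2 scale (SE 0.067) while the fibrillar collagen Col5a1 rose by 0.88 (SE 0.075). Contractile genes differed in direction too. Acta2, the actin of myofibroblasts and smooth muscle, rose by 0.35 (SE 0.028), Tagln, a smooth muscle actin-binding protein, fell by 0.23 (SE 0.050; adjusted p = 0.00259, and 0.0550 without si3m replicate 1) and Tpm1 fell by 0.32 (SE 0.056). Fn1, the fibronectin gene and the fibroblast marker that fell, dropped by 0.16 (SE 0.026).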
